A study of Schmidtea mediterranea with 64 samples.

Results

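The X1 fraction of the planarian *Schmidtea mediterranea*, the sorted cells in which its dividing stem cells are enriched, was compared with the whole animal in libraries that received control RNAi only. The comparison used 16 of the 64 libraries of the series, chosen by their labels. They were the *unc22*(RNAi) controls of the *set1* experiment, with 4 X1 libraries and 4 whole-worm libraries after 6 days of RNAi and the same numbers after 9 days. *unc22* is the non-targeting control of the study, and the animals ate bacteria that made its double-stranded RNA, mixed with liver paste. No strain or age of the animals is given in the sources used here.

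Planarian stem cells, called neoblasts, are the only dividing somatic cells of the adult, and they replace all differentiated tissues. Cells in the later phases of the division cycle hold more DNA, so they take up more Hoechst dye, and the X1 gate of the flow cytometer collects these brightly stained cells. A whole worm holds neoblasts too, together with muscle, gut, nervous, epidermal, excretory and other differentiated cells, so the contrast sets a fraction against the tissue from which it was taken.

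The study as a whole knocked down *set1* and *mll1/2*, which encode methyltransferases that place methyl groups on lysine 4 of histone H3, and measured polyA RNA. Each of its 2 experiments had its own *unc22*(RNAi) controls, and those of the *mll1/2* experiment (8 libraries at day 9) gave the same contrast in other libraries. The 16 *set1*(RNAi) libraries, sampled at the same days and listed in the same tables, gave it once more. X1 cells and whole worms differed in more than cell content, because RNA was extracted differently and X1 libraries started from less RNA. Their values also stood in separate tables, so tissue, RNA input and table cannot be told apart.

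The files do not pair transcript IDs with gene names, so the X1 label was not checked against neoblast genes, no gene family was counted, and only the 4 IDs given by a fixed rule are named. The column names of the X1 table give the RNAi, the day and a number, but they are the names of whole-worm samples and of whole-worm columns, not of X1 samples. The X1 columns were therefore used by group, under the letters a to d. The values of the 2 tables were different: over 15837 transcripts the log2 levels of X1 and whole-worm columns correlated with Pearson's r of 0.449 to 0.495 in 64 pairs, against 0.968 to 0.989 within X1 and 0.993 to 0.995 within whole worms (28 pairs each, a description across transcripts). Nothing says that libraries of a group came from separate sets of animals, so p-values measure only the spread between these libraries, which may be technical.

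The X1 libraries held 12.62 to 17.47 M reads (M, mega reads) and the whole-worm libraries 16.42 to 20.66 M. The deposited unit was RPKM, the reads of a transcript divided by its length in kilobases and by the library size in mega reads. The library size behind an X1 value was 0.946 to 1.15 times the reads listed, and the highest factor belonged to library a of day 9. This library also correlated least with the other X1 libraries, with a mean r of 0.978. Without it, the counts, shares and named differences between X1 cells and whole worms below kept their direction.

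The 2 tables did not list the same transcripts. There were 27275 IDs listed for whole worms and 18845 for X1 cells, of which 18157 stood in both. This was 96.3% of the X1 list and 66.6% of the whole-worm list. The 9118 IDs listed in whole worms only were mostly low, with a median of 0.86 RPKM, and carried 3.04% to 3.30% of the summed RPKM of a whole-worm library. A minority were well expressed, since 469 of them averaged at least 10 RPKM and the highest reached 292 RPKM. The X1 table of the *mll1/2* experiment listed 433 of these 469, at a median of 0.102 RPKM and at most 10.5 RPKM in its 8 *unc22*(RNAi) libraries. In the opposite direction, 688 IDs were listed in X1 only and carried 0.0844% to 0.0978% of the summed RPKM of an X1 library. Every ID of the X1 table had at least 61 reads over its 16 libraries and every ID of the whole-worm table at least 25, so an ID that is not listed had no value and entered no test.

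Fewer transcripts were detected in X1 cells than in whole worms at equal depth. Reads were thinned to 12.62 M, the depth of the shallowest library, and transcripts with at least 10 reads were counted among the IDs listed for each tissue. An ID that was not listed for a tissue was not counted there, and the X1 list was the shorter. The X1 libraries held 13592 at the lowest, 14156 at the median and 15118 at the highest, and the whole-worm libraries 19252, 19430 and 19633. The groups did not overlap. Means were 14195 ± 481 (SD, n = 8) in X1 and 19426 ± 123 (SD, n = 8) in whole worms, and the exact permutation test over 8 against 8 libraries gave p = 0.000155, two-sided, the smallest this design allows. X1 minus whole worm, the difference in means was -5338 at day 6 and -5125 at day 9 (exact permutation p = 0.0286 each, the smallest that 4 against 4 libraries allow). Over the IDs listed in both tables the difference was smaller, at -1789 (exact permutation p = 0.000155).

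The most abundant transcripts held a larger share of the RNA in X1 cells than in whole worms. The 100 highest transcripts carried 38.2% of the summed RPKM in the lowest X1 library, 40.6% at the median and 41.6% in the highest. In whole worms the same share was 26.9%, 27.3% and 28.0%, so every X1 library lay above every whole-worm library. The difference was 13.0 percentage points (40.4% ± 1.05 against 27.4% ± 0.338, SD, n = 8 each, exact permutation p = 0.000155, two-sided), and it was 13.0 at day 6 and 12.9 at day 9. The 1000 highest transcripts gave a difference of the same size, 76.1% in X1 against 63.2% in whole worms. The 10 highest transcripts did not: they carried 8.22% ± 0.275 (SD, n = 8) in X1 and 8.63% ± 0.134 (SD, n = 8) in whole worms, which was lower in X1 (exact permutation p = 0.000155). In reads rather than RPKM the 100 highest still carried 8.84 percentage points more in X1.

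**Figure D1:**
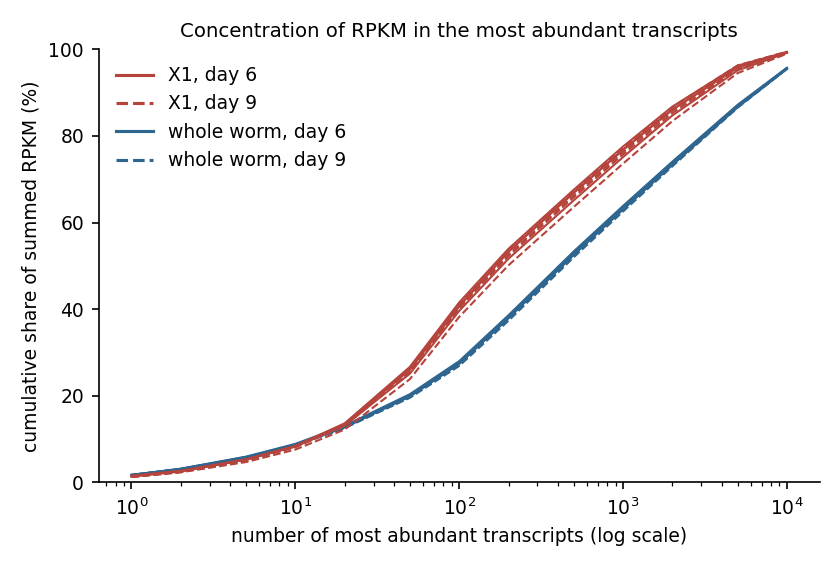
Cumulative share of the summed RPKM (%) held by the most abundant transcripts (log axis) in each of the 16 *unc22*(RNAi) libraries, with 1 line per library, X1 in red and whole worms in blue, day 6 solid and day 9 dashed. The whole-worm lines lie slightly above the X1 lines at 10 transcripts (8.63% and 8.22%), then the order turns, and the 100 highest transcripts hold 38.2% to 41.6% in X1 and 26.9% to 28.0% in whole worms.

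The abundant transcripts of the 2 tissues were partly different ones. By mean RPKM, 34 of the 100 highest transcripts of X1 cells were also among the 100 highest of whole worms, and 400 of the 1000 highest. The shift was not symmetric. Of the 100 highest transcripts of whole worms, 47 lay beyond rank 1000 in X1, with a median X1 rank of 564.5 and a lowest of 9513. Of the 100 highest transcripts of X1 cells only 1 lay beyond rank 1000 in whole worms, with a median whole-worm rank of 139.5. The leading X1 transcripts were thus nearly all abundant in the whole animal as well, while many leading whole-worm transcripts were minor in X1. A whole worm holds the X1 cells too, so the comparison itself favours this asymmetry, and how far it does was not tested. In these bulk samples, fewer cells of a type and less RNA per cell cannot be told apart.

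Transcript by transcript, X1 cells and whole worms differed at most of the transcripts tested. The test used 15837 IDs listed in both tables with a mean of at least 1 RPKM over the 16 libraries. Each library was centred on its median log2(RPKM + 0.5), because the tables may have been scaled separately, and limma tested whether a difference exceeded 2-fold. At an adjusted p below 0.05, 6051 transcripts were higher in X1 and 4101 were lower, 10152 in all. This was 64.1% of the IDs tested, with 38.2% higher and 25.9% lower. Among all IDs tested, 78% had 8 X1 values that did not overlap the 8 whole-worm values in deposited RPKM, in the direction of the centred difference. Values that were separated in the opposite direction were not counted.

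The split between the directions depended on the scaling. Without centring, 3979 transcripts were called higher and 6426 lower, since the median of all differences moved by -0.96 on the log2 scale. The share of calls that were higher was 59.6% with centring, 38.2% as deposited, 55.7% after quantile normalisation, 54.7% for ranks within a library and 46.8% for recovered reads with voom. No transcript was called in opposite directions with and without centring, but this outcome was fixed in advance. A call needed a difference beyond 1 in size on the log2 scale, and all differences moved together by -0.96. No call could therefore change direction, and the count says nothing about the scaling. Under all 5 scalings 3720 transcripts were called higher and 3706 lower, 23.5% and 23.4% of the IDs tested. Neither count can exceed the fewest calls of its direction under a single scaling, 3979 and 4101, so their near equality depends on the scalings chosen. Differences given below are relative to the median of each library.

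The most extreme differences were falls, although with centring more transcripts rose than fell at moderate sizes. The median of the transcripts called higher was 2.59 on the log2 scale and that of the transcripts called lower was -2.44. At least 4-fold, 4289 were called higher and 2663 lower, and at least 8-fold, 2182 and 1495. Of those called higher 646 differed at least 16-fold, 93 at least 32-fold and 6 at least 64-fold, and of those called lower 816, 376 and 141 did. Over all IDs tested the highest 1% of differences began at 4.77 and the lowest 1% ended at -5.87. Around the median difference of 0.34 these lie at 4.43 and -6.21, distances that do not move when all differences are shifted together. The sizes understate the change of low transcripts, because 0.5 was added to each RPKM value. A whole worm holds neoblasts too, which can limit a rise but not a fall, and the IDs tested had to be listed for both tissues. The part of this in the longer lower tail was not tested.

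**Figure D2:**
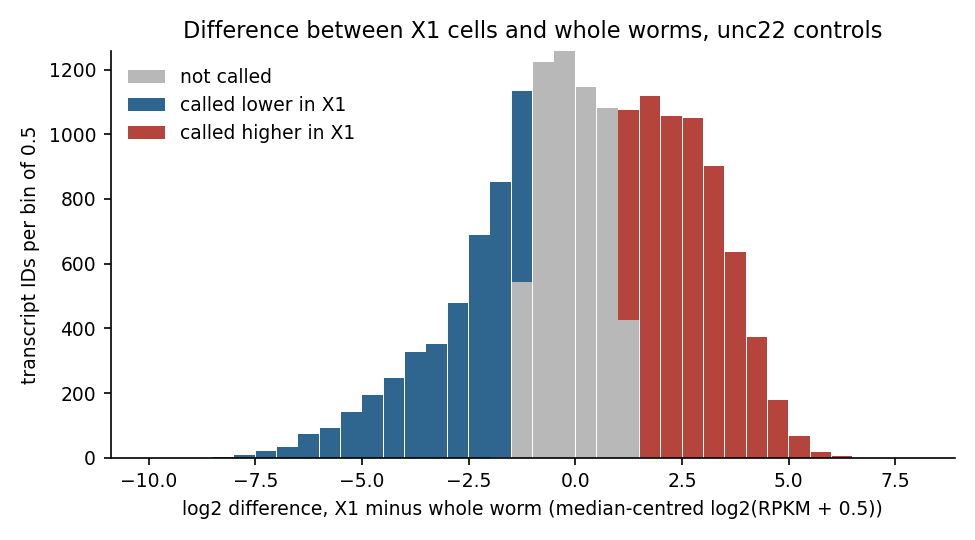
Number of transcript IDs (vertical axis) by log2 difference between X1 cells and whole worms in bins of 0.5 (horizontal axis), over the 15837 IDs tested in *unc22*(RNAi) libraries, with the 6051 called higher in X1 in red, the 4101 called lower in blue and the others in grey. The upper side is broad and thins out above 5, with 6 transcripts called at least 64-fold higher, and the lower side falls off slowly with a tail beyond -7.5.

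Some of the tested transcripts were nearly absent from 1 tissue. In X1, 179 of the tested transcripts averaged under 0.1 RPKM, and 64 of these averaged at least 10 RPKM in whole worms. In whole worms only 2 of the tested transcripts averaged under 0.1 RPKM, and 0 of them reached 10 RPKM in X1. These counts do not compare the tissues. An ID tested had to be listed in both tables and average at least 1 RPKM, so it passed only through the tissue where it was high, and the 688 IDs listed in X1 only, which reached up to 22.0 RPKM, were not among them.

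The extremes of each direction are shown by 4 transcripts. In each direction the rule took the largest difference and the most abundant transcript among those that changed at least 16-fold, always among transcripts with no overlap between the 8 X1 and the 8 whole-worm libraries and with the same call in the *mll1/2* experiment. Their differences were part of the rule, so these values describe the range of the data.

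SMED30022580, of 1307 bases, had the largest rise. Its X1 levels were 55.5 RPKM at the lowest, 92.0 at the median and 98.0 at the highest, and its whole-worm levels were 0.335, 0.459 and 0.778 RPKM. The lowest X1 value, in library a of day 9, was still far above the highest whole-worm value, and the groups did not overlap. The whole-worm values rest on 8 to 17 reads per library and the X1 values on 1462 to 2067. The difference was 7.39 on the log2 scale (SE 0.12, n = 8 and 8, limma adjusted p = 8.18e-18), and the next largest rise of any transcript was 6.40. In X1 it was only moderately abundant, at rank 1625, and in whole worms it stood at rank 23157.

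SMED30002931, a short transcript of 361 bases, was among the 3 most abundant transcripts of every X1 library. Its X1 levels were 7432 RPKM at the lowest, 11101 at the median and 16333 at the highest. In whole worms they were 986, 1094 and 1252 RPKM, so it was abundant there too, at rank 88 of all IDs. Its mean X1 level was 13983 RPKM at day 6 and 9879 at day 9. The difference between X1 cells and whole worms was not called different between the days (interaction -0.47, SE 0.24, limma adjusted p = 0.75), and the X1 level itself was not tested between days. The tissue difference was 4.35 (SE 0.12, limma adjusted p = 1.92e-14), and 2.70 after quantile normalisation, where it remained past the threshold.

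SMED30021196, of 464 bases, had the largest fall. In the 8 X1 libraries it had 13 reads in all, between 0 and 5 per library, or 0 to 0.535 RPKM with a median of 0.147. In whole worms it had 812 RPKM at the lowest, 933 at the median and 1035 at the highest, from 6544 to 9132 reads. A transcript at rank 126 of whole worms was thus at the limit of detection in these 8 X1 libraries. The difference was -9.44 on the log2 scale (SE 0.13, limma adjusted p = 1.34e-18), a value that the added 0.5 RPKM holds down, and the next largest fall was -8.29.

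SMED30028565, of 324 bases, was the most abundant transcript of all 8 whole-worm libraries. Its whole-worm levels were 11789 RPKM at the lowest, 12968 at the median and 14254 at the highest. At day 6 its X1 libraries had 174, 45.8, 213 and 33.2 RPKM (library a to library d). At day 9 they had 34.2, 183, 43.1 and 512 RPKM. All 8 lay below every whole-worm value, but they spanned a 15.4-fold range in X1 against 1.21-fold in whole worms. The difference was -6.10 (SE 0.51, limma adjusted p = 2.61e-08), a larger error than those of the other named transcripts.

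**Figure D3:**
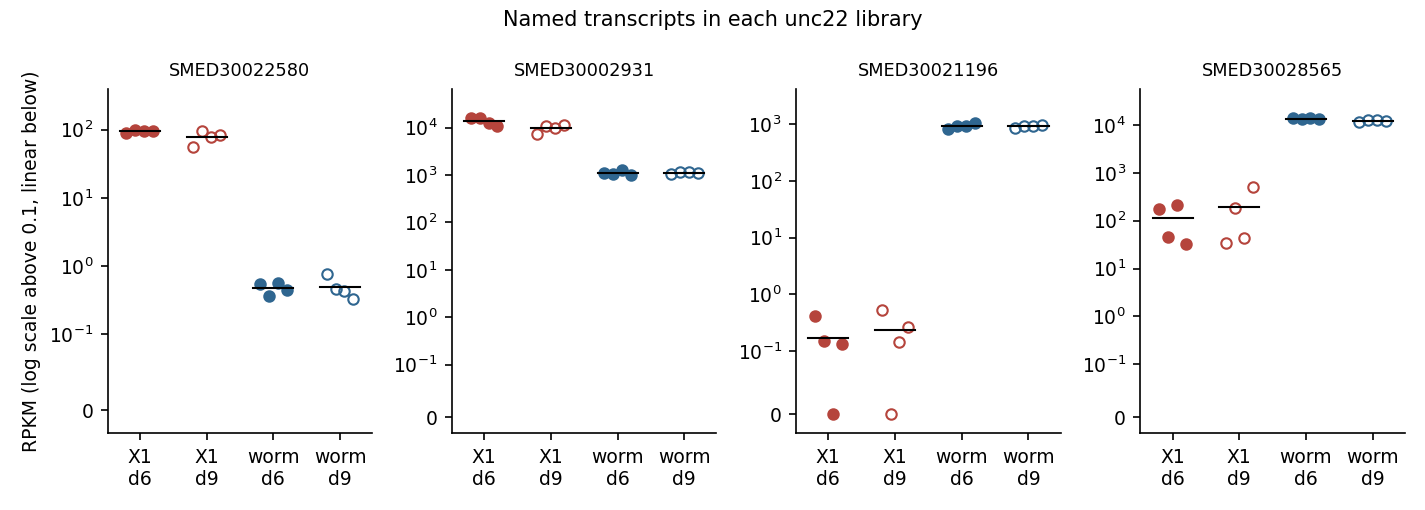
RPKM of the 4 named transcripts (vertical axis, log scale above 0.1 and linear below) in each *unc22*(RNAi) library, with X1 in red and whole worms in blue, day 6 as filled and day 9 as open circles, and a line at the mean of each group of 4. X1 and whole-worm points do not overlap for any of the 4, and SMED30028565 spans 33.2 to 512 RPKM in X1 but only 11789 to 14254 RPKM in whole worms.

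The uneven X1 level of SMED30028565 was shared by other transcripts that were abundant in whole worms. Among 10914 transcripts with at least 20 reads in every X1 library, 7 others followed it with r over 0.95 across the 8 X1 libraries, a description only, chosen after seeing the values. Of these, 5 were called lower in X1, and these 5 stood at rank 8 to 31 in whole worms with means of 2013 to 4022 RPKM. Summed over the 5, the X1 libraries of day 6 had 102, 32.1, 159 and 16.9 RPKM (library a to library d). Those of day 9 had 20.2, 139, 20.9 and 379 RPKM. High and low libraries were found at both days, with library d lowest at day 6 and highest at day 9.

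In general the X1 libraries varied more than the whole-worm libraries. Transcripts of 20 to 100 RPKM in both tissues (1225 IDs) had a median SD over the 8 libraries of 0.198 on the log2 scale in X1 and 0.061 in whole worms, and 99.6% of them varied more in X1. In the lowest class, 1 to 5 RPKM, the medians were 0.346 and 0.182. Above 100 RPKM they were 0.230 and 0.052, the widest ratio, where counting error is smallest. Without library a of day 9 the last X1 value was 0.189. Few transcripts were as uneven as SMED30028565: 97 of the 10914 spanned over 4-fold across the X1 libraries, of which 58 were called lower in X1 and 13 higher (14.4% and 51.2% of the 10914 were), and 5 of the 97 spanned over 4-fold in whole worms. The X1 libraries also held fewer reads, and the part of depth in this spread was not tested.

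To see how much of each RNA pool the differing transcripts made up, sets were taken from the *mll1/2* experiment, which shares no library with the 16 analysed here. The 6216 transcripts called higher in X1 there carried 87.7% to 90.7% of the summed RPKM of the X1 libraries and 30.6% to 31.4% of that of the whole-worm libraries. The 4413 called lower there carried 1.07% to 1.39% in X1 and 45.2% to 45.8% in whole worms. Neither set overlapped between tissues. A smaller group, the 780 that were at least 16-fold lower there, made up 27.0% to 27.7% of the whole-worm RPKM and 0.157% to 0.311% of the X1 RPKM. The 826 that were at least 16-fold higher made up 22.1% to 25.2% in X1 and 3.59% to 3.93% in whole worms. Of the 4413 and the 780, the X1 table listed 3248 and 656, and an ID that it did not list added nothing to the X1 sums.

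The contrast was very similar in the controls of the *mll1/2* experiment. There 6216 transcripts were higher and 4413 lower at day 9, 62.7% of 16949 tested (36.7% and 26%). Without centring, 28.9% of the calls were higher in place of 58.5%. Over the 15097 IDs tested in both, the differences correlated with r = 0.976 across transcripts, and 92.1% of them lay within 1 log2 unit of each other. Of the 9887 transcripts called in the *set1* experiment controls, 87.9% were called in the same direction in the other controls, which was 92.9% of the 9360 called there, and 1 transcript was called in opposite directions. Among the 1443 that differed at least 16-fold, 1439 were called the same way. At day 12 of that experiment 57.7% of the IDs tested were called (34.3% higher and 23.4% lower). Of the 9837 transcripts called in the *set1* experiment controls and tested in both, 7810 (79.4%) were called the same way and 0 the opposite way. The differences correlated less than at day 9, with r = 0.952, and 82.1% lay within 1 log2 unit.

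**Figure D4:**
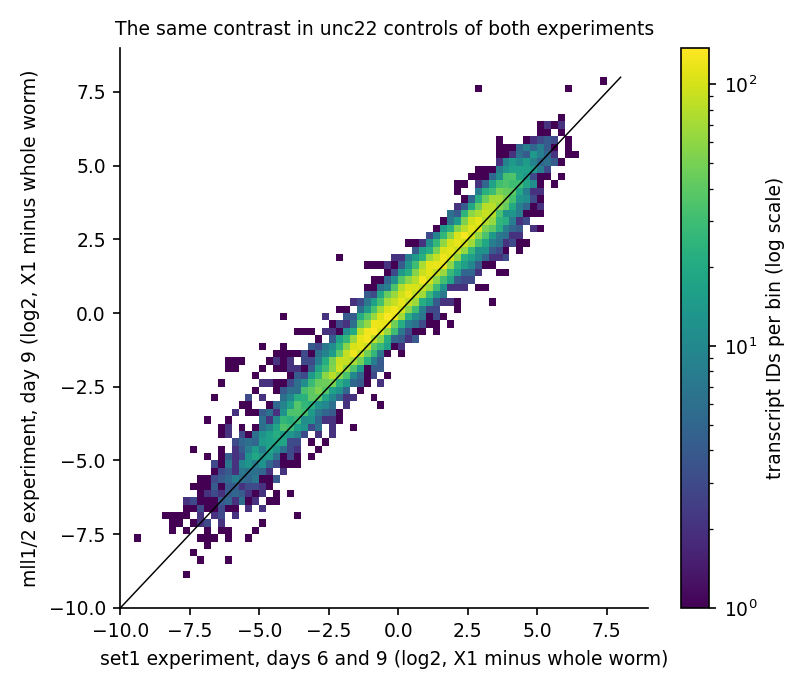
Log2 difference between X1 cells and whole worms in the *unc22*(RNAi) libraries of the *set1* experiment (horizontal axis) and of the *mll1/2* experiment at day 9 (vertical axis), as a density of the 15097 transcript IDs tested in both, with a log colour scale and the line of equal values. The IDs lie along the line (r = 0.976), and a small number at the lower left have smaller falls in the *mll1/2* experiment.

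The named transcripts, whose call there was part of the rule, kept their direction in these libraries. With centring, the difference of SMED30022580 exceeded that of SMED30021196 in size there, the reverse of their order in the *set1* experiment controls. This order depends on the scaling, since the median of all differences there was 0.28 with centring and -1.08 without it. SMED30022580 had 74.1 to 102 RPKM in the 4 X1 libraries at day 9 and 0.325 to 0.692 RPKM in whole worms (difference 7.85). SMED30002931 had 17528 to 27499 RPKM against 1838 to 2107 (4.86). SMED30028565 had 51.6 to 414 RPKM against 11299 to 12504 (-5.57). Of these 4 X1 libraries, 1 carried the range, with 67.3, 414, 51.6 and 61.5 RPKM in replicates 1 to 4, and at day 12 the 4 X1 libraries had 40.9, 61.1, 68.1 and 94.8 RPKM. SMED30021196 had 0.848 to 2.34 RPKM in X1, above all 8 values of the *set1* experiment controls, against 959 to 1237 in whole worms (-7.65). At day 12 its 4 X1 libraries had 1.31, 2.83, 6.19 and 20.9 RPKM in replicates 1 to 4. The whole worms of day 12 had 342 to 1203 RPKM.

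Behind the shared pattern, the size of the contrast did differ between the experiments for many transcripts. The difference of the contrasts at day 9 passed for 3057 of 15538 transcripts (19.7%, limma adjusted p below 0.05), 1533 more positive in the *set1* experiment and 1524 more negative. Most of these were small, with a median of 0.77 on the log2 scale, and 80 reached 4-fold. Without centring 3925 passed, of which 74.3% were more positive in place of 50.1%. Of the 3057, 1749 were called in the same direction in both experiments, so that these differed in size and not in called direction. This share was close to that of all IDs tested in both experiments, where 8695 of 15097 were called in the same direction. The calls of the *set1* experiment controls pooled both days, while the 3057 came from day 9 only. The experiments were also separate sets of tables, and experiment and table cannot be told apart.

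The contrast hardly differed between days 6 and 9. The difference of the contrasts passed for 9 of 15837 transcripts (0.0568%, limma adjusted p below 0.05), 8 more negative at day 9 and 1 more positive, and 1092 had an unadjusted p under 0.05. Of the 9, 7 were called lower in X1, against 25.9% of all IDs tested, and their sizes ranged from 0.67 to 3.21 on the log2 scale. For 99.2% of the transcripts the days differed by less than 1 log2 unit, with a median of 0.15. The count of 9 was fragile: leaving out single libraries gave 0 to 41, and it was 0 without replicate 2 of the whole worms at day 6, 29 without library b and 41 without library d of the X1 cells at day 9. With the count of 0, limma gave 868 transcripts with an unadjusted p under 0.05. The count was 4 or 5 without any other whole-worm replicate of day 6, without whole-worm replicate 1, 2 or 3 of day 9, or without library a or c of the X1 cells at day 6, and 15 without their library b.

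The difference between X1 cells and whole worms was found again after knockdown of *set1*. In the 16 *set1*(RNAi) libraries 6211 transcripts were higher in X1 and 4141 lower, 64.3% of 16103 tested (38.6% and 25.7%). Without centring, 38.7% of the calls were higher in place of 60.0%. Of the 10039 transcripts called in the controls and tested in both, 94.9% were called the same way after *set1*(RNAi), which was 94.0% of those called there, and 0 the opposite way. The difference of SMED30022580 was 7.49 after *set1*(RNAi), that of SMED30002931 was 4.30, that of SMED30021196 was -8.58 and that of SMED30028565 was -5.66. The difference of the contrasts between *set1*(RNAi) and *unc22*(RNAi) was not tested here.

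The difference between the tissues followed transcript length. Lengths were read from the steps of the RPKM values, and the tested transcripts were cut into 5 classes of near-equal number. From the shortest class (60 to 656 bases) to the longest (2328 to 21640 bases), the median difference was 1.58, 1.25, 0.68, -0.05 and -0.97. In the shortest class 53.5% were called higher in X1 and 17.0% lower, and in the longest class 15.7% and 44.4%. The median length was 989 bases among the transcripts called higher and 1727 bases among those called lower. The same order from the second class on was found in the *mll1/2* experiment, where the medians were 1.00, 1.20, 0.68, -0.01 and -0.74, and the *set1*(RNAi) libraries gave 1.62, 1.21, 0.61, -0.08 and -0.91.

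**Figure D5:**
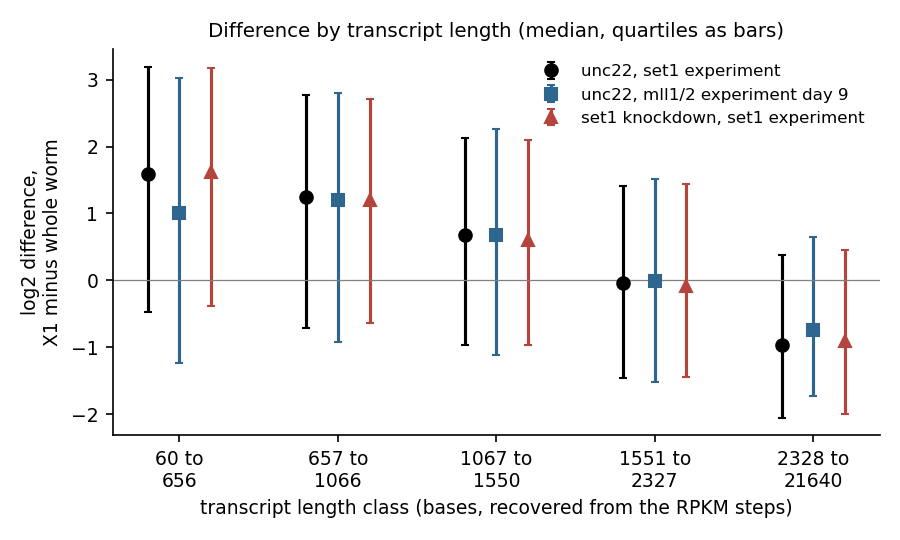
Median log2 difference between X1 cells and whole worms (points, with the quartiles as bars) in 5 classes of transcript length in bases, for the *unc22*(RNAi) libraries of the *set1* experiment, those of the *mll1/2* experiment at day 9 and the *set1*(RNAi) libraries. In the controls of the *set1* experiment the medians fall from 1.58 to -0.97, and the quartiles are wide in every class.

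Most calls were also made with the trend on length removed in each library. Then 5300 transcripts were called higher and 4329 lower, and 8258 of the 10152 calls were shared. The medians of the shortest and longest classes became 0.38 and -0.03. RNA extraction and input also differed between the tissues, so their part in the trend cannot be told apart from that of the cells.

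The difference also depended on abundance. In the most abundant of 5 classes, with at least 39.8 RPKM on the mean of both tissues, 60.1% of the transcripts were called higher in X1 and 22.3% lower, with a median of 1.89. In the second class, 3.00 to 7.53 RPKM, 28.1% were called higher and 33.7% lower, with a median of -0.34. The spread widened with abundance. The middle 50% of the differences spanned 2.27 in the lowest class and 3.72 in the highest, and the lowest 5% ended at -1.76 and -5.85. In the lowest class the added 0.5 RPKM limits how far a difference can go.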

How the data were processed

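PolyA RNA of X1 cells and whole worms was sequenced by the authors from TruSeq libraries. The submitters' processing notes name CASAVA 1.8.2, Bowtie and edgeR, with no role. How reads were counted, against which transcripts and with which filters is not stated in the sources available. The authors deposited RPKM values in 4 tables, 1 per experiment and tissue. Every value was a whole number of reads within 0.01 read once divided by its library's step and the transcript's length, and reads and lengths were recovered in this way. Reads served for depth, thinning and an alternative test.

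IDs in both tables with a mean of at least 1 RPKM were tested on log2(RPKM + 0.5), centred on each library's median, with limma 3.58.1 in R 4.3.3 (lmFit with 1 mean per group, treat at 2-fold with a trend; eBayes for differences between days or experiments), two-sided, with Benjamini-Hochberg adjustment over all IDs tested. Centring and the 2-fold margin were used because the tissues stand in separate tables. Measures with 1 value per library were compared by exact permutation. The fit was tested on simulated data. Python 3.11.15 with pandas 2.3.3, numpy 2.4.6 and scipy 1.17.1 was used. The members, lists and tests were chosen with earlier results of these data known. In each direction the rule named, among transcripts called in the *set1* and *mll1/2* experiment controls with no overlap of the libraries, the largest difference and the most abundant with a log2 difference of at least 4. Replicate libraries of a group differed by more than sampling noise (chi-square per degree of freedom 1.84 to 47.3), so none was a repeat deposit. Alternatives were other scalings, ranks, pseudocounts of 0.1 and 1, filters, margins, single days, removal of the length trend, a replicate block and each library left out.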

Additional observations from a re-analysis of the deposited data

Results flagged for a closer look

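Of 40 groups of 4 libraries examined for a library far from the others, 1 held one, while chance gives about 1 in 20 groups. The transcripts called lower in X1 in the *mll1/2* experiment carried 1.27% of the summed RPKM in library a of the X1 cells at day 9, against 1.07% to 1.10% in the other libraries of that day. This library also had the largest scaling factor behind its RPKM values (1.15). The X1 libraries of day 6 carried 1.07% to 1.39%, so its share lay within the range of all 8 X1 libraries. All 8 X1 libraries remained below the whole-worm values of 45.2% to 45.8%.

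The difference between X1 cells and whole worms was itself different between days 6 and 9 for 9 transcripts by the interaction test in limma. It was different between the *set1* and *mll1/2* experiments at day 9 for 3057 transcripts by the same kind of test, a median of 0.77 on the log2 scale.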

How the results depend on the processing

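The count of 10152 transcripts that differed stayed within 1.5 times under all alternatives but a 4-fold margin, which by its construction left 6082; with no margin it was 14633. Single libraries left out gave 10064 to 10324. In the same way leaving out a library gave 10395 to 10621 in the *mll1/2* experiment, 10274 to 10439 after *set1*(RNAi), and 2316 to 4248 for the difference between experiments. The difference between days passed for 9 transcripts, and for 15 as deposited, 23 after quantile normalisation, 31 with recovered reads and voom, 19 with ranks, 5 with no filter and 0 to 41 with a library left out (29 without library b and 6 without whole-worm replicate 4 of day 9); the cause was not tested. The share held by the most abundant transcripts reversed for the 10 highest (-0.42 percentage points), and with a library left out the 100 highest gave 12.8 to 13.3. The number of transcripts at a common depth was lower in X1 under every alternative, with a difference of -5363 to -5145 with a library left out. The 4 named transcripts kept direction and call under all alternatives, with 2.70 to 4.58 for SMED30002931 and -7.26 to -5.81 for SMED30028565.

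In the *mll1/2* experiment a replicate block moved the calls from 10629 to 10504, but libraries sharing a number did not deviate together (correlations of -0.03, -0.03, -0.08 and -0.16). In the *set1* experiment the number at the end of the column names was used as a replicate block, chosen after seeing the data. Over 8 pairs of the controls the correlations were -0.12 to 0.13, and 3 of 8 X1 columns correlated best with their own number. These values gave no sign that the numbers pair the libraries, but they cannot exclude it. With this block 10117 transcripts differed between the tissues, 10341 did after *set1*(RNAi), 2117 differed between experiments, and 0 differed between days by limma (925 with an unadjusted p under 0.05). Depth limited the values of transcripts near 0 reads, such as SMED30021196 in X1.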
